A study of Mus musculus with 19 samples.

Results

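The comparison described here is that of livers from mice whose AgRP neurons could be excited by light for 2 h with livers from mice in which the same light had no Cre-driven opsin to act on. Its members were all 14576 genes that had counts in the 9 libraries of this duration, of 14576 genes and 19 libraries in the series, and 12493 of them passed the filter on low counts and were tested. The tg mice (4 livers) were AgRP-IRES-Cre tg/wt, with 1 allele of the driver, and the wt mice (5 livers) were AgRP-IRES-Cre wt/wt, with none. Both groups were ROSA26 ChR2 fl/wt, that is, they carried 1 floxed channelrhodopsin-2 (ChR2) allele at ROSA26. Both were adult, were labelled Random Fed and had a 6 mm optic fibre above the arcuate nucleus. Both received 473 nm light in 10 ms pulses at 20 Hz, 3 s on and 1 s off, from zeitgeber time (ZT, hours after lights on) 5.5 until 7.5, with no food, and livers were then taken. No tg mice without light were among the samples used here, so neuron excitation cannot be told apart from carrying the Cre driver, which sits in the Agrp gene itself, and which cells carried the opsin was not measured here. Nothing in the labels ties same-numbered mice of both groups to a litter or day, and p-values measure the spread between the mice as labelled.

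AgRP neurons are hypothalamic cells that are active in hunger and, when excited, drive feeding, and they can engage the sympathetic nervous system and the adrenal axis. The liver responds to fasting signals such as glucagon, catecholamines and glucocorticoids by shifting from storage to the release of glucose and the use of amino acids and fat. Glucocorticoids act through a nuclear receptor that binds DNA at glucocorticoid response elements (GREs), whereas glucagon and catecholamines raise cyclic AMP, which acts through CREB at cyclic AMP response elements (CREs).

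Library totals ran from 22557006 to 25366961 counts in tg and from 22962054 to 32721828 in wt. The first principal component of the 9 libraries, with 24.4% of their variance, placed tg livers between -27.0 and -11.0 and wt livers between 3.05 and 39.6. Wt replicate 3 held that upper end, and the next wt liver, replicate 4, was at 13.8. On the second component, with 22.9%, the groups overlapped, at -10.7 to 32.0 in tg and -25.6 to 18.8 in wt. All 10 hepatocyte markers were present, and their summed level, in counts per 1000000 library counts (CPM), was 83664 to 117004 in tg livers and 87123 to 109914 in wt livers. Summed markers of sinusoidal endothelium were 237 to 313 CPM in tg and 233 to 320.3 CPM in wt, those of Kupffer cells and macrophages 206 to 376 CPM in tg and 199 to 391 CPM in wt, and those of neutrophils 0.892 to 9.04 CPM in tg and 0.776 to 11.5 CPM in wt. All of these ranges overlapped. Single livers lay at an end of the range in some measures. Summed urea cycle genes were 18969 CPM in tg replicate 2, against 10472 to 14199 CPM in the other tg livers. In wt livers they were 10752 to 11615 CPM. Tg replicate 1 was the lowest or highest of the 9 livers in several measures. Mitochondrially encoded genes took 7.75% of its counts, against 10.2% to 12.9% in the other 3 tg livers and 10.0% to 12.7% in wt livers, and its summed acute phase proteins, secreted in inflammation, were 59809 CPM, against 29273 to 35536 CPM in the other tg livers and 26839 to 44215 CPM in wt livers. Summed metallothioneins and zinc transporters were 2478 CPM in it, against 1105 to 1483 CPM in the other tg livers and 579.96 to 998 CPM in wt livers, and summed NF-kB pathway genes and cytokines were 385 CPM, against 243 to 306 CPM in the other tg livers and 221 to 273 CPM in wt livers. The mitochondrial share was 10.5% ± 2.16 in tg and 11.1% ± 1.09 in wt (SD, n = 4 and 5; two-sided exact permutation test, p = 0.635, with 0.0159 the smallest p possible), and the difference changed sign without tg replicate 1.

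Of the 12493 genes tested, 270 (2.16%) differed between tg and wt, 142 (1.14%) higher and 128 (1.02%) lower, at a Benjamini-Hochberg adjusted p under 0.05 in the quasi-likelihood test of edgeR. Every p-value called an edgeR adjusted p in what follows comes from that test and that adjustment over all 12493 genes, and "rose" and "fell" are used of genes past it. The rises were larger than the falls, with a median log2 change of 1.08 against -0.81, and 81 genes more than doubled whereas 39 lost over 50% of their level. Called rises summed to 23575 CPM in tg livers and 10450.1 CPM in wt livers, and called falls to 2022 CPM in tg livers and 3564 CPM in wt livers. In 750 genes (6.0% of those tested) the groups did not overlap, with all tg livers above all wt livers in 364 (2.91%) and below them in 386 (3.09%). Of the 270 called genes 253 were among them, 137 above and 116 below. Of the called genes, 182 were in none of the 61 lists used to group genes here. In these bulk samples, fewer cells of a type and less RNA per cell cannot be told apart.

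**Figure D1:**
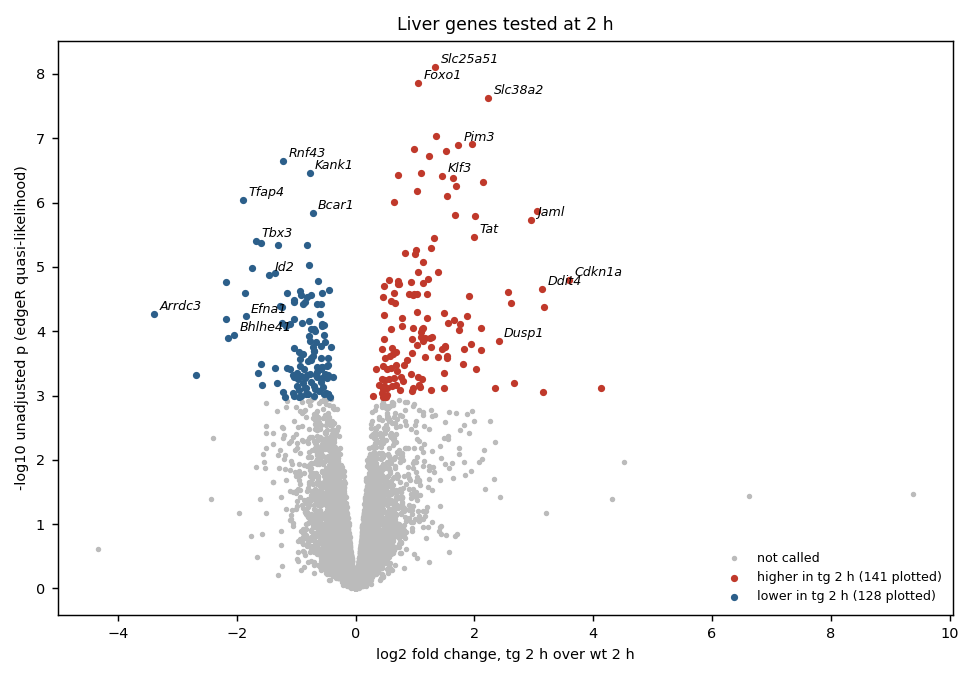
Log2 fold change of tg over wt livers at 2 h (x axis) against -log10 of the unadjusted p (y axis) for tested genes, with genes called higher in tg in red, called lower in blue and the rest in grey. Hsd11b2, which had 0 counts in wt and no finite fold, is left out, and Slc25a51, Foxo1 and Slc38a2 sit highest.

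The smallest p-value of all tested genes belonged to Hsd11b2 (ENSMUSG00000031891), the enzyme that inactivates glucocorticoids and is best known from the kidney. It had 39, 27, 37 and 45 counts in tg livers (replicates 1, 2, 3 and 5), against 0 counts in each of the 5 wt livers. Every tg library was above every wt library, and the level in tg, 1.56 CPM over the group, was low. Against a floor of 3 counts over the wt group, it was at least 69.2-fold higher in tg (edgeR adjusted p = 1.44e-05). Livers lit for 4 h held 17, 22, 30, 47 and 48 counts in tg and 0, 1, 1, 0 and 0 counts in wt.

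Hsd11b2 lies on the plus strand at chr8:105518755-105523988 (GRCm38, GENCODE M21), 42.7 kb from Agrp, the gene that carries the Cre driver in tg mice. Between them lies Atp6v0d1, a subunit of the proton pump of lysosomes, whose annotated end is 0.651 kb from Agrp. Atp6v0d1 had 89.1, 89.9, 75.6 and 80.6 CPM in tg livers, against 51.4, 59.1, 73.7, 61.8 and 54.7 CPM in wt livers. The lowest tg library was just above the highest wt library, and the log2 change was 0.48 ± 0.09 (SE; edgeR adjusted p = 0.00449). Of 37 tested genes within 500 kb of Agrp, these were the 2 called at 2 h (5.41%, against 2.16% of all genes). The other 35 had log2 changes between -0.74 and 0.19, with Fhod1, an actin regulator, nearest to a call (edgeR adjusted p = 0.0530). Whether the 2 rises belong to the engineered locus or to the light cannot be told apart, since every tg mouse had both.

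**Figure D2:**
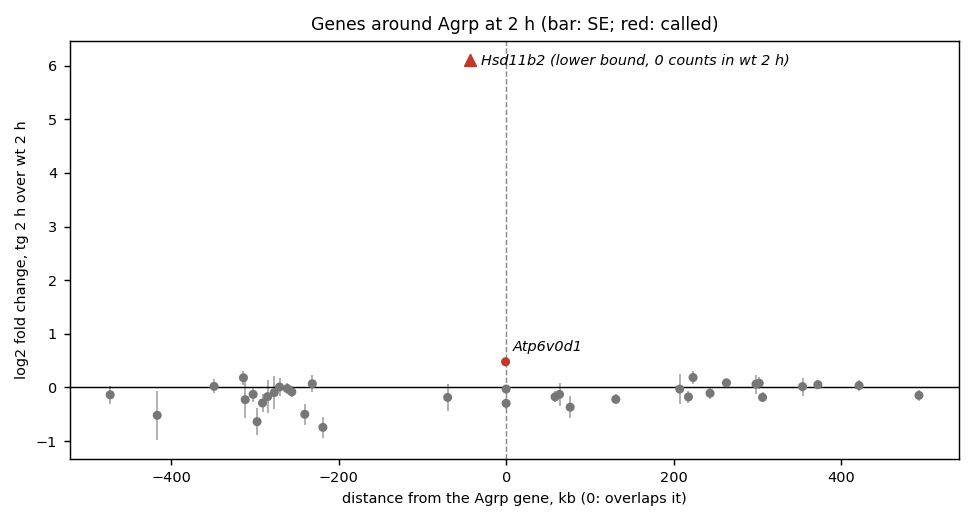
Log2 fold change of tg over wt livers at 2 h (y axis, bars are SE) of the tested genes within 500 kb of Agrp, by distance from that gene in kb (x axis). Hsd11b2 is drawn at its lower bound of 69.2-fold, Atp6v0d1 at 0.48, and the other 35 genes, none of them called, lie between -0.74 and 0.19.

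Targets of the glucocorticoid receptor held more called genes than any other of the 61 lists. Of 26 tested members, 15 rose and 0 fell, against 1.14% and 1.02% of all genes. Their median log2 change was 1.49, against 0.01 over all tested genes. Without tg replicate 1 there were 9 rises, and the median stayed between 1.27 and 1.57 without any 1 library. The list was chosen with results of these libraries known, so its count is no independent evidence of a direction. Beside the enzymes of amino acid breakdown Tat and Sds, the 15 held signalling regulators, described next, and the PI3-kinase subunit Pik3r1. Of 14 genes of the receptor's own axis, the steroid-handling enzymes and receptor partners, Hsd11b2 alone was called.

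Sgk1, a kinase activated downstream of insulin that is a classical glucocorticoid target, had 26.8, 19.2, 40.7 and 36.8 CPM in tg livers, against 10.6, 13.3, 7.06, 7.88 and 13.5 CPM in wt livers. All tg libraries were above all wt libraries, and the log2 change was 1.56 ± 0.30 (edgeR adjusted p = 0.00926). Dusp1, a phosphatase that switches off MAP kinases, had 86.4, 26.7, 63.6 and 48.1 CPM in tg, against 10.5, 15.1, 7.95, 10.2 and 9.11 CPM in wt. The groups did not overlap, tg replicate 1 was the highest, and the log2 change was 2.41 ± 0.49 (edgeR adjusted p = 0.0135), or 2.12 with an edgeR adjusted p = 0.0537 without that replicate.

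Errfi1, a feedback inhibitor of the EGF receptor, was abundant, with 1324, 1288, 1397 and 1357 CPM in tg livers and 279, 945, 739.7, 472 and 622 CPM in wt livers. The 4 tg livers were close to each other, while the wt livers spread widely and stayed below them. Its log2 change was 1.13 ± 0.23 (edgeR adjusted p = 0.009901), and with the 9 libraries of 2 h fitted alone the edgeR adjusted p = 0.0547. Ddit4, an inhibitor of the growth kinase complex mTORC1, had 56.9, 61.4, 51.5 and 50.005 CPM in tg and 3.53, 16.3, 3.12, 4.61 and 3.73 CPM in wt. Wt replicate 2 stood above the other wt livers and below every tg liver, so that the log2 change of 3.14 ± 0.54 (edgeR adjusted p = 0.00487) became 3.88 without it.

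The stretches of 250 bases upstream of annotated starts (RefSeq, GRCm38.p6) were searched on both strands for a CRE, TGACGTCA, and a GRE, GNACA followed by any 3 bases and TGTNC. They are shown for 3 of the regulators above because each held 1 match, printed in capitals. The strand shown is that of the gene, 5′ to 3′, and each window ends at the base before the start.
Sgk1, chr10:21993640-21993889, plus strand, GRE from 188 bases upstream: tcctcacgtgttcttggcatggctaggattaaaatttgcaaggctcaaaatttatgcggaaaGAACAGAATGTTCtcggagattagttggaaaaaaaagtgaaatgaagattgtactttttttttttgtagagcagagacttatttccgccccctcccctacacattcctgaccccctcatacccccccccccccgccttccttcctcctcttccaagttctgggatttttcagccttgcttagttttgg
Errfi1, chr4:150854820-150855069, plus strand, CRE from 51 bases upstream: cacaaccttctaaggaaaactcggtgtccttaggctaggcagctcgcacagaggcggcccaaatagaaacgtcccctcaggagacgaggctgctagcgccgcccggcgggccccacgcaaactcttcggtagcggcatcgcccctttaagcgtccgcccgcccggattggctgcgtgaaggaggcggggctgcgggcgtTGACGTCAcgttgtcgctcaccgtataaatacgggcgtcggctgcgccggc
Dusp1, chr17:26508473-26508722, minus strand, CRE from 143 bases upstream: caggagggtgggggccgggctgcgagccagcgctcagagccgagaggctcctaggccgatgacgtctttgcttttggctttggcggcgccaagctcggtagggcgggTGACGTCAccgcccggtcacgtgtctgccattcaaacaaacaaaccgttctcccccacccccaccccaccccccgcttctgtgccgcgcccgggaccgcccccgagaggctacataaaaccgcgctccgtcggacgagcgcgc

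A CRE was found upstream of 12 of the 118 genes that rose and had a sequence (10.2%), of 4 of the 106 genes that fell (3.77%) and of 288 of all 9949 tested genes with a sequence (2.89%). The 12 were Btg2, Dcun1d3, Dusp1, Dusp8, Ell2, Errfi1, Lrrc8a, Ppp1r15a, Rcan1, Retreg1, Slc25a25 and Tmc7. A GRE was found upstream of 3 genes that rose (2.54%), Acnat2, Fam107a and Sgk1, of 0 genes that fell and of 31 of all genes (0.312%). For an AP-1 site, TGANTCA, the shares were 6.78% of rises, 4.72% of falls and 5.86% of all. For an E-box, CACGTG, they were 16.1%, 11.3% and 9.82% in the same order, for a D-box, TTANGTAA, 4.24%, 0.943% and 1.74%, and for a FoxO site, GTAAACA, 1.69%, 1.89% and 2.83%. Genes could have several windows, 170 for the rises, 137 for the falls and 12748 for all. Per window the shares in that order were 7.06%, 2.92% and 2.4% for a CRE and 2.35%, 0.0% and 0.267% for a GRE. They were 4.71%, 3.65% and 4.81% for AP-1 and 11.2%, 8.76% and 8.14% for an E-box. For a D-box they were 2.94%, 0.73% and 1.42%, and for FoxO 1.18%, 1.46% and 2.27%. A match is a string of letters and does not show that a factor binds there.

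Transcription factors that set hepatocyte identity moved in both directions. Of 27 tested hepatocyte factors, 6 fell and 3 rose, against 1.02% and 1.14% of all genes, with a median log2 change of -0.31, and without tg replicate 1 there were 6 falls and 2 rises. The C/EBP factors split. Cebpa, which maintains the differentiated hepatocyte, had 282, 238, 243 and 265 CPM in tg livers and 339, 347, 466, 418 and 359 CPM in wt livers. All tg libraries were below all wt libraries, with a log2 change of -0.59 ± 0.11 (edgeR adjusted p = 0.00584). Cebpb, induced in fasting and inflammation, had 134, 85.04, 99.7 and 108 CPM in tg and 25.8, 80.8, 40.4, 42.8 and 29.3 CPM in wt, where replicate 2 came close to the lowest tg liver without reaching it. Its log2 change was 1.28 ± 0.26 (edgeR adjusted p = 0.0124), and the call ended without tg replicate 1 (1.16, edgeR adjusted p = 0.053) and with the 9 libraries of 2 h alone (1.29, edgeR adjusted p = 0.0547).

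Tbx3, a T-box repressor that marks hepatocytes around the central vein, had 15.3, 15.9, 12.3 and 10.5 CPM in tg livers, against 68.7, 26.9, 31.5, 56.4 and 30.9 CPM in wt livers. Every tg liver was below every wt liver, of which replicates 1 and 4 were the highest, and the log2 change was -1.67 ± 0.26 (edgeR adjusted p = 0.00162). Tfap4, a helix-loop-helix factor linked to MYC and growth, had 1.4, 1.66, 1.64 and 0.84 CPM in tg and 5.2, 4.63, 5.2, 5.69 and 5.27 CPM in wt, with narrow and separate groups and a log2 change of -1.90 ± 0.27 (edgeR adjusted p = 0.000535). The bile duct factor Sox9 was the 1 called gene, lower in tg, among the 5 tested cholangiocyte markers, against 1.02% of all genes lower. The median log2 change of the 5 was 0.34, and 1 of them was higher in tg at an unadjusted p under 0.05 (edgeR). Their summed levels of 22.2 to 54.0 CPM in tg and 28.7 to 37.7 CPM in wt overlapped. Of the 5, 0 were called without tg replicate 2, 3 or 5 or wt replicate 2 or 4.

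Klf3 and Klf15 rose among other factors. Klf3, a zinc finger repressor, had 131, 124, 146 and 141 CPM in tg livers and 51.3, 50.7, 41.02, 57.99 and 45.5 CPM in wt livers. The lowest tg liver was over 2-fold above the highest wt liver, and the log2 change was 1.46 ± 0.19 (edgeR adjusted p = 0.000321). Klf15, a driver of amino acid breakdown and gluconeogenesis in fasting, had 276, 274, 241 and 266 CPM in tg and 124, 158, 194, 189.8 and 132 CPM in wt, with no overlap and a log2 change of 0.73 ± 0.13 (edgeR adjusted p = 0.00428). They were the 2 called genes, both rises, of 13 tested Krüppel-like factors, against 1.14% of all genes higher and 1.02% lower.

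**Figure D3:**
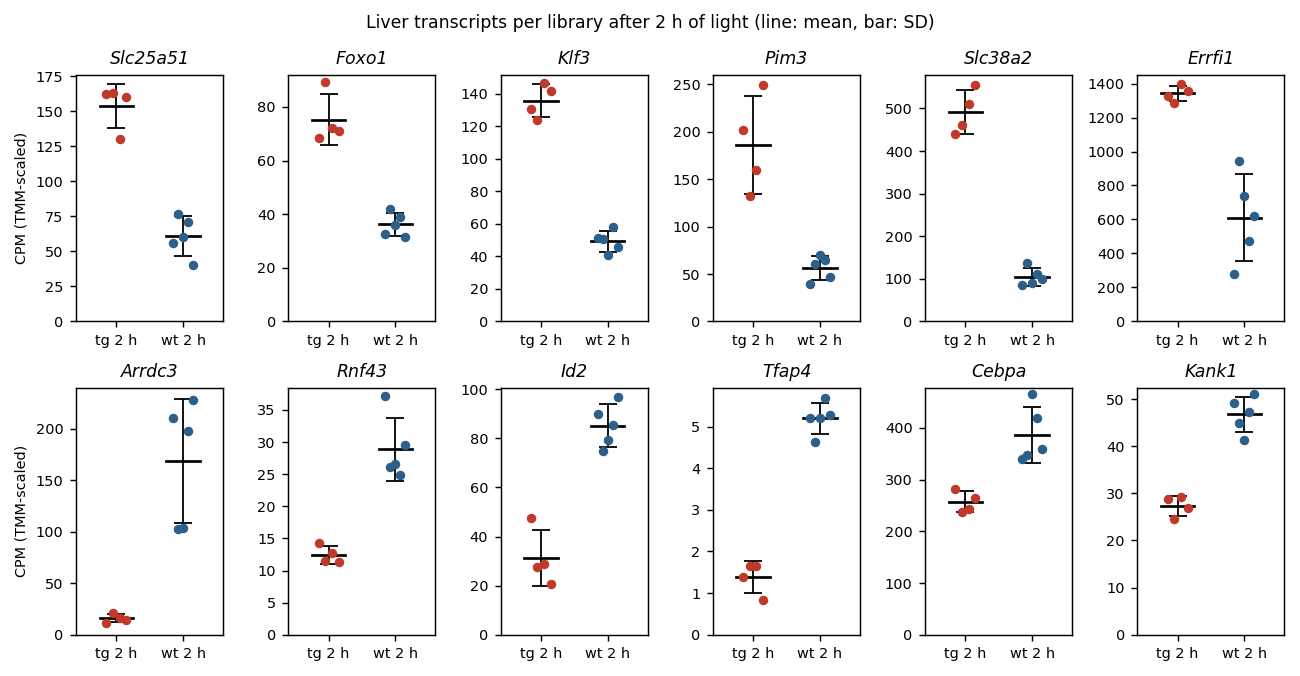
Levels in CPM (y axis, from 0) of 12 genes in each tg (left, red) and wt (right, blue) liver at 2 h, with the mean as a line and the SD as a bar. In each of the 12 genes the tg and wt livers do not overlap, and the 6 rises are in the upper row and the 6 falls in the lower row.

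Genes of insulin and PI3-kinase signalling included Foxo1, the factor that insulin keeps out of the nucleus and that turns on fasting genes. Foxo1 had 68.6, 89.2, 72.2 and 71.1 CPM in tg livers, against 32.8, 41.8, 36.1, 38.8 and 31.6 CPM in wt livers. All tg livers were above all wt livers, and the log2 change was 1.06 ± 0.12 (edgeR adjusted p = 5.76e-05). Pik3r1, a regulatory subunit of PI3-kinase, had 107, 88.5, 84.9 and 97.6 CPM in tg and 61.7, 69.3, 46.9, 57.6 and 61.7 CPM in wt, again without overlap (log2 change 0.67 ± 0.13, edgeR adjusted p = 0.00569). Pik3c2b, a class II PI3-kinase, was lower in tg, with 3.45, 3.48, 3.33 and 2.48 CPM in tg and 6.46, 7.13, 7.98, 6.98 and 7.003 CPM in wt. Tg replicate 5 was the lowest, and the log2 change was -1.16 ± 0.21 (edgeR adjusted p = 0.00496). Pim3, a serine/threonine kinase that promotes survival, had 202, 132, 159 and 249.9 CPM in tg and 39.1, 60.5, 70.1, 64.7 and 47.03 CPM in wt, a log2 change of 1.73 ± 0.21 (edgeR adjusted p = 0.000215) between groups that did not overlap. Of 24 tested insulin signalling and FoxO genes, 4 rose and 1, Irs1, fell, against 1.14% and 1.02% of all genes. Their median log2 change was 0.08. There were 0 falls without any 1 of tg replicates 1, 3 and 5 and wt replicates 1, 2, 3 and 5.

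A few transporters of the inner mitochondrial membrane rose, while none of the listed genes of the respiratory chain was called. Slc25a51, the carrier that brings NAD+ into mitochondria, had 162, 163, 131 and 160.0 CPM in tg livers, against 55.9, 76.6, 60.4, 71.05 and 40.02 CPM in wt livers. Even tg replicate 3, the lowest, lay well above the wt livers, and the log2 change of 1.34 ± 0.14 (edgeR adjusted p = 4.84e-05) had the second smallest p-value of all genes. Slc25a15, the ornithine carrier of the urea cycle, had 433, 679.8, 367 and 593 CPM in tg and 204, 272, 283, 251 and 234 CPM in wt, without overlap (log2 change 1.06 ± 0.18, edgeR adjusted p = 0.00357). Of 29 tested mitochondrial carriers, 3 rose, against 1.14% of all genes, and 0 fell, and 2 rises stayed without tg replicate 1 or 5 or wt replicate 1, 3, 4 or 5. Ppargc1a, a coactivator of mitochondrial and gluconeogenic genes, had 18.9, 46.3, 25.6 and 37.4 CPM in tg and 10.7, 7.61, 8.44, 12.3 and 10.6 CPM in wt. Tg replicate 1 was the lowest tg liver and still above every wt liver, and the log2 change was 1.69 ± 0.23 (edgeR adjusted p = 0.000377). None of the 13 mitochondrially encoded genes and none of 28 listed nuclear genes of oxidative phosphorylation was called, against 2.16% of all genes. Their median log2 changes were 0.02 and 0.05, and each of those lists had 0 members with an unadjusted p under 0.05 in edgeR's test.

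Slc38a2, a sodium-coupled transporter of small neutral amino acids, had 439.8, 462, 511 and 556 CPM in tg livers, against 85.6, 136, 90.1, 110.4 and 99.1 CPM in wt livers. The lowest tg liver was over 3-fold above the highest wt liver, and the log2 change was 2.24 ± 0.24 (edgeR adjusted p = 7.36e-05). Of 22 tested amino acid transporters 2 rose and 0 fell, of 36 enzymes of amino acid breakdown 2 rose and 0 fell, and of 20 gluconeogenic enzymes 1 rose and 0 fell, against 1.14% of all genes higher and 1.02% lower. There was 1 transporter that rose without tg replicate 2 or wt replicate 4 or 5, and 0 gluconeogenic enzymes without tg replicate 2 or 5 or wt replicate 1 or 5. Atp1b1, a subunit of the sodium pump that maintains the gradient such transporters use, had 119, 192, 116 and 163 CPM in tg and 47.9, 58.8, 67.1, 59.1 and 54.2 CPM in wt. Those groups did not overlap, and the log2 change was 1.36 ± 0.17 (edgeR adjusted p = 0.000215).

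Several genes downstream of bone morphogenetic proteins (BMPs) fell. Of 27 tested genes of BMP signalling and iron sensing, 5 fell and 1 rose, against 1.02% and 1.14% of all genes, although the median log2 change was only -0.11. The Id proteins, inhibitors of helix-loop-helix factors that BMP receptors turn on through SMADs, made up 3 of the 5. Id1 had 3.45, 3.99, 3.57 and 2.79 CPM in tg livers and 6.66, 5.4, 6.42, 9.995 and 7.08 CPM in wt livers. Id2 had 47.6, 27.5, 28.9 and 20.8 CPM in tg and 89.8, 74.8, 79.3, 85.3 and 96.7 CPM in wt, and Id3 had 17.7, 14.5, 13.6 and 12.5 CPM in tg and 30.2, 25.1, 41.4, 40.8 and 35.3 CPM in wt. In all 3, every tg liver was below every wt liver, and the log2 changes were -1.04 ± 0.21, -1.45 ± 0.25 and -1.24 ± 0.24 (edgeR adjusted p = 0.00839, 0.00374 and 0.00925). Smad6, an inhibitory SMAD that BMP signalling induces as feedback, had 3.74, 3.61, 4.68 and 3.58 CPM in tg and 6.9, 6.95, 6.6, 5.95 and 7.19 CPM in wt. Its groups were also separate, with a log2 change of -0.78 ± 0.13 (edgeR adjusted p = 0.002996). Between 4 and 5 falls stayed without any 1 library, and the single rise was that of Tfrc, the transferrin receptor, with 0 rises without tg replicate 1, 2 or 5 or wt replicate 1, 3 or 5.

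Among genes of the Wnt-driven zone around the central vein, 3 of 20 tested fell and 0 rose, against 1.02% and 1.14% of all genes. Leaving out 1 library gave between 2 and 4 falls. Rnf43, a ubiquitin ligase that removes Wnt receptors and is itself a Wnt target, had 14.3, 11.5, 12.7 and 11.3 CPM in tg livers, against 37.1, 26.1, 26.6, 24.9 and 29.5 CPM in wt livers. The highest tg liver was below the lowest wt liver by a wide margin, and the log2 change was -1.21 ± 0.16 (edgeR adjusted p = 0.000253). Tbx3, given above, was another of the 3. The last, Sp5, was called in 2 of the 9 fits that left out 1 library, and not with the libraries of 2 h alone. The median log2 change of the 20 genes was 0.05.

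Of 21 tested genes of EGF receptor signalling and feedback, 2 rose, among them Errfi1 given above, and 3 fell, against 1.14% and 1.02% of all genes. Without tg replicate 1 there were 1 rise and 2 falls, and without tg replicate 5 there were 2 rises and 1 fall. Erbb3, a receptor that pairs with other members of the family, had 83.8, 84.7, 89.5 and 69.7 CPM in tg livers and 145, 135, 131, 128 and 164 CPM in wt livers. The groups were separate, with a log2 change of -0.78 ± 0.16 (edgeR adjusted p = 0.0121), or -0.71 with an edgeR adjusted p = 0.0636 without tg replicate 5. Efna1, an ephrin ligand that was in the same list, ran from 5.04 to 14.2 CPM in tg and from 18.7 to 45.5 CPM in wt (log2 change -1.85 ± 0.35, edgeR adjusted p = 0.00798). Outside the lists, Grb7, an adaptor that binds receptor tyrosine kinases, had 52.5, 63.6, 49.8 and 48.8 CPM in tg and 85.9, 82.9, 104, 106 and 93.1 CPM in wt, and Bcar1, a docking protein of adhesion signalling, had 29.2, 21.6, 24.98 and 26.2 CPM in tg and 38.7, 35.9, 47.7, 44.1 and 44.1 CPM in wt. Neither overlapped, with log2 changes of -0.81 ± 0.13 and -0.72 ± 0.11 (edgeR adjusted p = 0.00173 and 0.000751). Kank1, also in none of the lists and a scaffold that links adhesions to the cell cortex, had 28.9, 24.6, 29.2 and 26.8 CPM in tg and 49.2, 44.8, 41.4, 47.3 and 51.1 CPM in wt, and its log2 change was -0.77 ± 0.10 (edgeR adjusted p = 0.000321).

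Growth arrest genes moved in both directions, and a pair of BH3 death inducers fell. Of 22 tested p53 targets and growth arrest genes, 7 rose and 3 fell, against 1.14% and 1.02% of all genes. Without tg replicate 1, tg replicate 2 or wt replicate 5 there were 4 rises. Trp53inp1, a p53-induced protein that acts in autophagy and arrest, had 148, 192, 143 and 254 CPM in tg livers, against 44.8, 54.1, 32.5, 53.6 and 42.2 CPM in wt livers. All tg livers were at least 2.5-fold above the highest wt liver, and the log2 change was 2.02 ± 0.29 (edgeR adjusted p = 0.0007701). Bbc3, which encodes the death inducer PUMA, had 4.81, 3.74, 3.04 and 2.52 CPM in tg and 7.58, 7.28, 11.1, 12.02 and 7.34 CPM in wt. Bik, another BH3 death inducer, had 1.68, 1.23, 1.52 and 1.11 CPM in tg and 3.13, 2.76, 3.48, 4.83 and 2.94 CPM in wt. Both were lower in every tg liver than in any wt liver, with log2 changes of -1.36 ± 0.24 and -1.30 ± 0.21 (edgeR adjusted p = 0.00363 and 0.00173). The stress-induced GADD45 genes also split, with Gadd45b at 2.26, 4.21, 1.27 and 4.47 CPM in tg and 0.544, 0.515, 0.306, 0.862 and 0.377 CPM in wt, and Gadd45a at 1.52, 1.7, 1.31 and 1.06 CPM in tg and 5.27, 3.86, 4.89, 5.08 and 4.52 CPM in wt. Gadd45b was higher and Gadd45a lower in every tg liver, with log2 changes of 2.56 ± 0.47 and -1.75 ± 0.30 (edgeR adjusted p = 0.00496 and 0.00324). Their relative Gadd45g was also called higher, but the call held in 0 of the 9 fits that left out 1 library.

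A similar split was seen in mRNA decay factors of the TTP family and in arrestins. Zfp36, which destabilises AU-rich mRNAs, had 132, 112, 139 and 135 CPM in tg livers and 39.5, 76.5, 57.9, 53.9 and 41.98 CPM in wt livers. Its relative Zfp36l1 had 48.1, 44.8, 49.6 and 40.8 CPM in tg and 93.4, 56.8, 74.8, 79.2 and 82.4 CPM in wt. Every tg liver was above every wt liver for Zfp36 and below it for Zfp36l1, and the log2 changes were 1.26 ± 0.20 and -0.75 ± 0.14 (edgeR adjusted p = 0.00183 and 0.00496). Of 23 tested immediate early genes, which respond within minutes to growth signals, 4 rose and 2 fell, against 1.14% and 1.02% of all genes. In that list, 3 rose and 2 fell without tg replicate 1, and 4 rose and 1 fell without tg replicate 2, 3 or 5 or wt replicate 2 or 4. Of the alpha-arrestins, adaptors that route membrane proteins to degradation, Arrdc2 had 40.5, 56.7, 43.9 and 46.5 CPM in tg and 8.83, 17.8, 11.8, 13.7 and 8.58 CPM in wt, whereas Arrdc3 had 11.7, 21.4, 16.7 and 14.8 CPM in tg and 211, 103, 104, 198 and 228 CPM in wt. The groups did not overlap in either gene, and the lowest wt liver held over 4 times as much Arrdc3 as the highest tg liver (log2 change -3.38 ± 0.63, edgeR adjusted p = 0.00753). The rise of Arrdc2, 1.95 ± 0.40 on the log2 scale (edgeR adjusted p = 0.0146), became 1.85 with an edgeR adjusted p = 0.05003 without wt replicate 5.

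**Figure D4:**
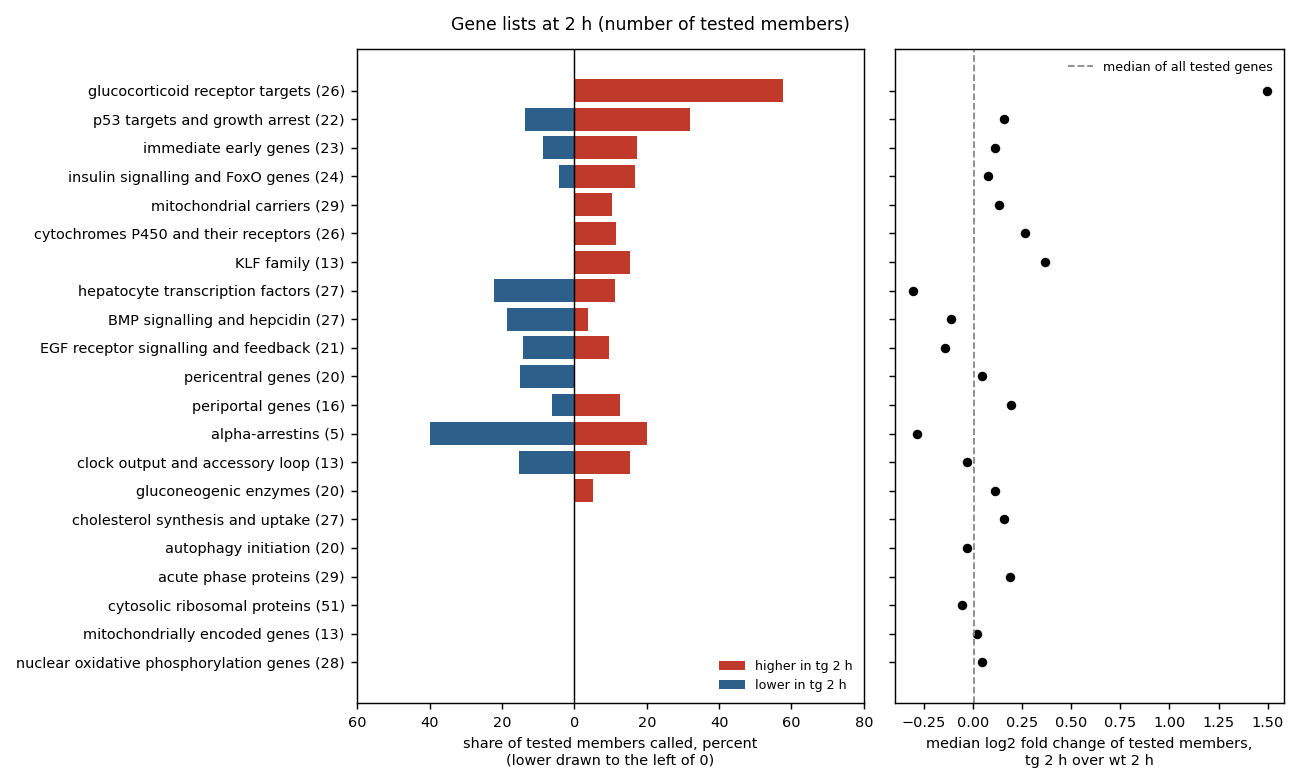
Left, share in percent of the tested members of 21 lists (number tested in parentheses) that were called higher (red) or lower (blue, drawn to the left of 0) in tg than in wt livers at 2 h; right, the median log2 fold change of the same members, with the median of all tested genes as a dashed line. Glucocorticoid receptor targets stand at 1.49, hepatocyte transcription factors at -0.31, and autophagy initiation, acute phase, ribosomal, cholesterol and respiratory chain lists have no called member.

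Some receptors and enzymes that handle foreign compounds and heme were higher in tg. Alas1, the enzyme that limits heme synthesis, had 757, 436, 948 and 682 CPM in tg livers, against 180.3, 285, 225, 232 and 193 CPM in wt livers. The tg livers varied but all lay above the wt livers, with a log2 change of 1.66 ± 0.32 (edgeR adjusted p = 0.00856). The xenobiotic receptors Nr1i2 (PXR), at 79.01, 70.9, 66.7 and 74.5 CPM in tg and 44.2, 47.02, 43.6, 59.8 and 44.9 CPM in wt, and Ahr, at 77.3, 72.7, 77.6 and 86.7 CPM in tg and 35.7, 44.8, 29.01, 31.8 and 39.5 CPM in wt, did not overlap between groups (log2 changes 0.60 ± 0.12 and 1.12 ± 0.23, edgeR adjusted p = 0.00992 and 0.00992). Of 26 cytochromes P450 and their receptors 3 rose and 0 fell, against 1.14% and 1.02% of all genes, and Cyp1a1 was the 1 P450 that rose. There were 2 rises without tg replicate 3 or 5 or wt replicate 1, the fits in which Cyp1a1 lost its call. Fmo5, a flavin monooxygenase, had 1361, 1838, 1114 and 1308 CPM in tg and 607, 806, 622, 671 and 487 CPM in wt, and Ces1b, a carboxylesterase, had 206, 181, 113 and 188 CPM in tg and 43.5, 51.4, 71.8, 63.6 and 67.8 CPM in wt. Both were higher in every tg liver, with log2 changes of 1.14 ± 0.19 and 1.53 ± 0.19 (edgeR adjusted p = 0.00276 and 0.000215). Ces1b belongs to a cluster of near-identical genes, so reads could have been split among its copies. None of the 30 conjugating enzymes was called (edgeR), against 2.16% of all genes, and 2 of them had an unadjusted p under 0.05.

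Among lipid genes, Plin5, which ties lipid droplets to mitochondria, had 83.8, 78.8, 82.1 and 127 CPM in tg livers and 27.7, 41.8, 18.9, 49.8 and 25.7 CPM in wt livers. Tg replicate 5 was the highest, the groups did not overlap, and the log2 change of 1.505 ± 0.32 (edgeR adjusted p = 0.0155) lost its call without tg replicate 5 (1.32, edgeR adjusted p = 0.06995) or wt replicate 5 (1.43, edgeR adjusted p = 0.0505). Mid1ip1, which helps polymerise acetyl-CoA carboxylase for fat synthesis, had 29.5, 39.9, 26.8 and 15.6 CPM in tg and 62.6, 71.6, 57.9, 54.9 and 51.6 CPM in wt, without overlap (log2 change -1.10 ± 0.22, edgeR adjusted p = 0.00928). It was the 1 gene called of 19 for fatty acid synthesis. Of 21 genes of lipid droplets and lipases 1 rose and 1 fell, of 30 genes of fatty acid oxidation and ketogenesis 1 rose, and 0 of 27 genes of cholesterol synthesis and uptake were called by edgeR, 1 of them with an unadjusted p under 0.05, against 2.16% called of all genes. The fall among lipases, of Lipe, was called only in the fits without tg replicate 3 or wt replicate 4 of those that left out 1 library, and the droplet list had 0 rises without tg replicate 5 or wt replicate 5 and 2 rises without wt replicate 2 or 4. The oxidation list had 0 rises without tg replicate 1, 2 or 5 or wt replicate 1, 3 or 5.

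Some clock genes differed although all livers were taken at the same ZT. Noct, a deadenylase-like enzyme with a strong daily rhythm, had 71.6, 124, 64.4 and 66.3 CPM in tg livers, against 16.9, 40.5, 31.8, 18.9 and 11.6 CPM in wt livers. Tg replicate 2 was the highest by far, and even without it the remaining tg livers were above all wt livers. Ciart, a repressor of the clock, had 38.8, 43.3, 49.5 and 50.3 CPM in tg and 14.4, 17.5, 25.8, 25.8 and 15.3 CPM in wt, with separate groups (log2 changes of 1.77 ± 0.34 for Noct and 1.20 ± 0.23 for Ciart, edgeR adjusted p = 0.00926 and 0.00825). Bhlhe41, another repressor, had 1.6, 1.49, 3.21 and 3.14 CPM in tg and 9.85, 3.12, 15.2, 10.6 and 10.02 CPM in wt. Wt replicate 2 lay among the tg livers, and the log2 change of -2.05 ± 0.42 (edgeR adjusted p = 0.0118) lost its call without tg replicate 1 (-1.90, edgeR adjusted p = 0.0536) or tg replicate 2 (-1.88, edgeR adjusted p = 0.051). Of 12 genes of the core clock loop, Ciart was the 1 called, and of 13 genes of clock output and the accessory loop 2 rose (Noct and Usp2) and 2 fell (Bhlhe41 and Nr1d1), against 1.14% and 1.02% of all genes. In that list, 0 fell without tg replicate 1 or 2 and 1 fell without tg replicate 3 or wt replicate 1, 3, 4 or 5, and 1 rose without tg replicate 2 or wt replicate 1, 2 or 5.

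Retreg1, a receptor for autophagy of the endoplasmic reticulum, had 103, 174, 141 and 167 CPM in tg livers and 67.4, 61.8, 72.7, 97.9 and 68.2 CPM in wt livers. Every tg liver was above every wt liver, with a log2 change of 0.99 ± 0.18 (edgeR adjusted p = 0.00496), and it was the 1 call of 28 conjugation genes, LC3 proteins and receptors. Of 20 genes that start autophagy 0 were called (edgeR), and 2 had an unadjusted p under 0.05. The share called over both lists was near the 2.16% of all genes. Ulk1, the kinase that starts autophagy, had 139, 144, 144 and 149 CPM in tg and 118, 148, 100.5, 131 and 126.2 CPM in wt, overlapping groups with a log2 difference of 0.21 ± 0.10 (edgeR adjusted p = 0.448).

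Some immune genes differed, in both directions. Tnfrsf1b, a receptor of tumour necrosis factor, had 83.3, 75.6, 114 and 117 CPM in tg livers and 29.1, 36.9, 26.3, 35.2 and 28.4 CPM in wt livers. Tnfaip2, a gene induced by that cytokine, was lower, with 5.55, 3.27, 5.83 and 5.04 CPM in tg and 15.5, 14.5, 11.9, 15.6 and 16.6 CPM in wt. Neither overlapped, with log2 changes of 1.65 ± 0.22 and -1.59 ± 0.25 (edgeR adjusted p = 0.000323 and 0.00173). Of 22 tested NF-kB pathway genes and cytokines, 2 rose (Nfkbia and Vcam1) and 1, Tnfaip2, fell, against 1.14% and 1.02% of all genes. That list had 0 rises without tg replicate 1 or wt replicate 1 or 5. Irf1, an interferon-induced factor, had 15.3, 17.1, 13.1 and 10.9 CPM in tg and 30.9, 25.1, 40.2, 38.6 and 30.9 CPM in wt, and was the 1 called, a fall with a log2 change of -1.23 ± 0.23 (edgeR adjusted p = 0.00626), of 26 interferon-stimulated genes. Ptp4a1, a phosphatase of regenerating liver, had 298, 368, 285 and 249 CPM in tg and 148, 170.1, 153, 165 and 122 CPM in wt. All its tg livers were above its wt livers, with a log2 change of 0.98 ± 0.13 (edgeR adjusted p = 0.000215). Of 29 acute phase genes and 51 cytosolic ribosomal protein genes 0 were called by edgeR, against 2.16% of all genes, with 3 and 0 at an unadjusted p under 0.05.

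The mice lit for 4 h were other animals, lit from ZT 3.5 to the same ZT 7.5, and allow the 2 h effects to be set beside those of a longer stimulation, where 1423 genes (11.4%) were called. Of the 142 rises at 2 h 88.7% were also called higher at 4 h, which is 17.5% of the 718 rises at 4 h, and of the 128 falls at 2 h 60.9% were also called lower, which is 11.1% of the 705 falls at 4 h. For Id1 the log2 change of tg over wt was -1.04 ± 0.21 at 2 h and 0.27 ± 0.19 at 4 h, for Id3 -1.24 ± 0.24 and -0.14 ± 0.22, and for Smad6 -0.78 ± 0.13 and -0.05 ± 0.12. At 4 h the edgeR adjusted p-values of these 3 were 0.391, 0.743 and 0.828. Id2, in contrast, was called at both durations, with -1.45 ± 0.25 at 2 h and -0.77 ± 0.22 at 4 h (edgeR adjusted p = 0.0322 at 4 h). For Alas1 the log2 change was 1.66 ± 0.32 at 2 h and 0.16 ± 0.30 at 4 h, and for Tbx3 -1.67 ± 0.26 at 2 h and -0.42 ± 0.23 at 4 h. For Atp1b1 it was 1.36 ± 0.17 at 2 h and 2.09 ± 0.16 at 4 h, and for Retreg1 0.99 ± 0.18 and 1.56 ± 0.18. Foxo1 (1.06 ± 0.12 at 2 h and 0.99 ± 0.11 at 4 h) and Bcar1 (-0.72 ± 0.11 and -0.80 ± 0.10) were closer at both durations. None of these differences between durations passed adjustment: 0 genes were called for the difference by edgeR, with 723 at an unadjusted p under 0.05, and limma-voom called 0 and DESeq2 6. The unadjusted p was 0.000128 for Id1, among the 4 smallest with Osbpl11, Ifnar1 and Lgr5, and the edgeR adjusted p for the difference was 0.367 in all 4.

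**Figure D5:**
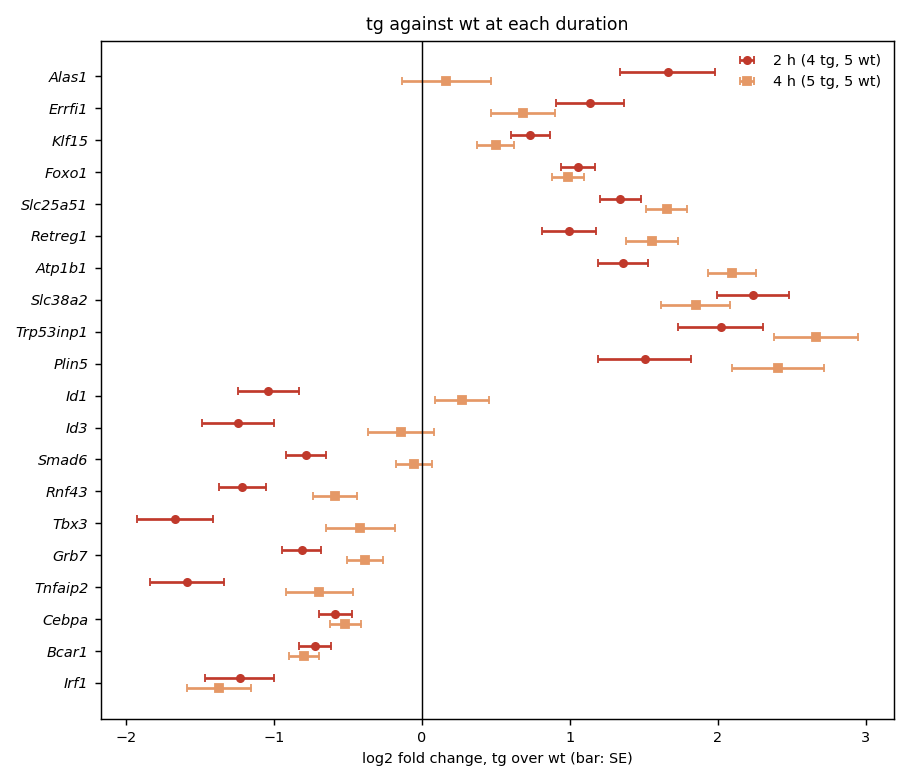
Log2 fold change of tg over wt livers (x axis, bars are SE) of 20 genes at 2 h (red circles) and 4 h (orange squares), each duration in its own mice. Id1 stands at -1.04 at 2 h and 0.27 at 4 h, and Alas1 at 1.66 and 0.16, whereas Foxo1 and Bcar1 lie close together; no difference between durations passed adjustment.

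In the authors' deposited table of the 2 h comparison, 523 genes had an adjusted p under 0.05, 267 higher and 256 lower in tg. Of the 270 genes called here, 267 were among them.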

How the data were processed

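Liver RNA (1 µg, integrity number above 8) went into stranded libraries of poly-A RNA, per the labels' protocols. STAR, Salmon 1.4.0 and DESeq2 1.30.0 are in the submitters' processing notes, along with build GRCm38.p6. The authors deposited raw counts per gene in whole numbers, and a table of their own tg against wt comparison at 2 h with log2 fold changes and adjusted p-values, from which gene symbols and a count of calls were taken. The sources used here do not give how counts were made from reads. Of 14576 genes, 257 had no 4 h value (highest mean count at 2 h 5.11) and were left out.

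Counts of all 19 libraries were filtered (minimum count 10, minimum total 15) and fitted with 1 mean per group in edgeR 4.0.16 (R 4.3.3) with TMM scaling. Contrasts used the quasi-likelihood test with Benjamini-Hochberg adjustment at 0.05, with 15 residual degrees of freedom and a biological coefficient of variation of 0.183. CPM used TMM-scaled totals, was not divided by gene length, and is not compared between genes. Standard errors were derived from the fold change and its test statistic. The mitochondrial share was compared by an exact permutation test over all splits of the 9 livers (scipy 1.17.1). The test was checked on simulated data. No pair of 2 h libraries agreed within sampling noise (36 pairs, chi-square per degree of freedom at least 32.8).

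Members and gene lists were chosen with earlier results of these data known. Named genes were up to 4 called members of a list (or the most abundant member of a list with none), the 15 largest rises and falls with a mean of 1 CPM or more, the 8 most abundant called genes, the 10 rises and 10 falls with the smallest p outside the lists, the 4 smallest p-values for the difference between durations, and called genes whose promoter held a searched motif. The text gives values for some of these, and some are not reported here. Genes named only as holders of a motif, as members of a count or as nearest to a call are given without values per liver. They were tested in the same fit as the others. Promoter sequences were RefSeq's for GRCm38.p6, and 9949 tested genes matched. Positions came from GENCODE M21, plots from matplotlib 3.10.9. Alternatives were other scalings (RLE, upper quartile), no filter or a minimum count of 50, DESeq2 1.42.0, limma-voom (limma 3.58.1), a replicate block, the 9 libraries of 2 h alone, and fits without each library in turn.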

Additional observations from a re-analysis of the deposited data

Results flagged for a closer look

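In 114 sets of livers examined (1 measure in 1 group), 7 held a value far from the rest of its group, 6.14%, where chance gives about 1 in 20. Among wt livers, Ddit4 was 16.3 CPM in replicate 2, against 3.12 to 4.61 CPM in the other 4, and Nr1i2 was 59.8 CPM in replicate 4, against 43.6 to 47.0 CPM. Among tg livers, replicate 3 was the lowest for Slc25a51, at 131 CPM against 160.0 to 163 CPM, and the highest for Smad6, at 4.68 CPM against 3.58 to 3.74 CPM. Tg replicate 5 was the lowest for Pik3c2b, at 2.48 CPM against 3.33 to 3.48 CPM, and the highest for Plin5, at 127 CPM against 78.8 to 83.8 CPM. Noct was 124 CPM in tg replicate 2, against 64.4 to 71.6 CPM in the other tg livers. In each of these genes except Plin5 the call at 2 h held without the library that stood apart.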

How the results depend on the processing

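The count of 270 genes called at 2 h was 268 with RLE scaling, 274 with upper-quartile scaling, 250 without a filter, 277 with a minimum count of 50, 268 with limma-voom and 297 with the 9 libraries of 2 h alone, and it moved to 425 with DESeq2. Without each library in turn it ran from 151 (without tg replicate 5) to 244, and it was also over 1.5 times lower without tg replicate 1 (165), tg replicate 2 (177) and wt replicate 5 (161). All main calls that could be fitted kept their sign in each of these fits, and between 148 and 269 of them were called again. Same-numbered tg and wt livers did not deviate together (correlations of -0.30, -0.12, -0.33 and 0.19 for numbers 1, 2, 3 and 5), and with the replicate block 193 genes were called, 158 of them in common, with a share of rises of 65.3% against 52.6%. Of the genes given with values, Atp6v0d1, Sgk1, Dusp1, Cebpa, Cebpb, Arrdc2, Arrdc3 and Alas1 were not called in that fit. The difference between durations had 0 calls in edgeR and limma-voom fits and 6 with DESeq2. The difference in mitochondrial share, -0.62 percentage points, ran from -1.43 (without tg replicate 2) to 0.298 (without tg replicate 1, where it reversed; the cause was not tested). Of 56 genes given with values in the text, 50 kept their call, or lack of one, without any 1 library and 44 under every alternative run, and none reversed. These 56 were a chosen part of the named genes, so the counts do not describe all called genes. Called genes without values held their call in 0 (Gadd45g), 2 (Slc25a25) or up to 9 (Btg2) of the 9 fits that left out 1 library. Hsd11b2 had no value with a minimum count of 50. Counting depth limits genes of few CPM such as Hsd11b2, Bik and Gadd45b most.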
